A study of Mus musculus with 18 samples.

Results

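The miR-143 and miR-145 cluster is a pair of neighbouring microRNA (miRNA) hairpins, each of which yields a mature strand from its 5′ arm (5p) and from its 3′ arm (3p). Its 4 mouse strands, mmu-miR-143-3p, mmu-miR-143-5p, mmu-miR-145a-5p and mmu-miR-145a-3p, named below without the species prefix, were taken by name from the 1907 mature miRNAs of a small RNA sequencing table, and their reads were summed per strand. All 4 were measured in every library and all 4 passed the filter on low counts that left 550 miRNAs for testing.

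The libraries came from mouse NIH/3T3 cells, an established line of embryonic fibroblasts. Small RNAs were sequenced as input and after a pull-down (immunoprecipitation, IP) that used an antibody to pseudouridine (Ψ), an isomer of uridine that enzymes make within RNA. The conditions were wild-type cells (WT) and cells 3 days (KD3) or 6 days (KD6) into a knockdown of Pus1, whose product is one of the enzymes that make Ψ. Each of these 3 conditions had 3 input and 3 IP libraries, named A, B and C, which gives 18 libraries. All groups are of the one cell line, and the reagent used for the knockdown is not given in the sources used here. The labels give no day for WT and name no control treatment. Time in culture and the knockdown treatment itself therefore cannot be told apart from loss of Pus1. Nothing states that replicates came from separate cultures, so p-values measure the spread between these samples, which may be technical. The Pus1 transcript was not analysed here.

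miR-143 and miR-145 are transcribed together as one primary RNA and are best known from smooth muscle, where serum response factor and its coactivator myocardin drive them and where they favour the contractile state over proliferation. After the hairpins are cut by Drosha and Dicer, one strand of each duplex is usually kept in Argonaute as the guide that represses target mRNAs, and the other, the passenger, is mostly degraded. The usual guides are miR-143-3p and miR-145a-5p, so the pair of hairpins keep opposite arms.

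By the GENCODE M21 annotation of GRCm38, the assembly also called mm10, the Mir143 hairpin lies on the minus strand of chromosome 18 from position 61649196 to 61649258. The Mir145a hairpin lies on the same strand from 61647825 to 61647894, and 1301 bases separate them. Neither hairpin overlaps another annotated gene. The long noncoding RNA gene Carmn, on the same strand, ends 366 bases upstream of Mir143, and the long noncoding RNA gene Bvht, on the opposite strand, lies 352 bases beyond Mir145a. The paralogous hairpin Mir145b is on the same chromosome, from 69022199 to 69022273. Its mature strand miR-145b held between 0 and 3.8 reads in every library, at or near the floor of 3 reads that a count of 0 allows, so few reads were assigned to it.

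Replicate A of the KD6 input, with 241109 mapped reads, gives the least precise values, and the other libraries had 3989031 to 15099781. In the inputs 5.47% to 9.96% of mapped reads fell outside miRNA rows. The share was 14.8% to 18.6% in WT IP and 23.2% to 38.2% in the knockdown IP libraries. The labelled cell type was checked with a list of 6 mesenchymal miRNAs, measured as CPM (reads scaled to a common library size). Their summed level was 261354 to 458462 CPM in the inputs and 67129 to 173382 CPM in the IP libraries. Most of it was miR-21a-5p, which averaged 385535 CPM over the inputs of WT cells and 72127 CPM over their IP libraries. That miRNA is also on the smooth muscle list used below, so the mesenchymal sum is a weak check of cell type. Markers of blood cells (4 miRNAs) summed to at most 1.32 CPM and those of endothelium (2 miRNAs) to at most 2.65 CPM, with 0 in some libraries of each. The 5 markers of epithelium reached 13.2 CPM. Striated muscle markers (3 miRNAs) summed to 89.05 to 613 CPM, the liver marker miR-122-5p was at 24.4 to 291 CPM and the 2 neuronal miRNAs summed to 2552 to 8141 CPM. Nearly all of the striated muscle sum was miR-206-3p, with WT input means of 119 CPM for it, 1.95 for miR-1a-3p and 0 for miR-133a-3p. Nearly all of the neuronal sum was miR-9-5p (mean 3541 CPM in WT input), with miR-124-3p at 0.099 CPM. Of these lists, striated muscle, liver and neuron sums were higher in each IP library than in each input library of the same condition, and their part in the results was not tested.

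The guide strand miR-143-3p was among the most abundant miRNAs of these fibroblasts before the IP and far less prominent after it. CPM here are scaled by TMM, a method that assumes most miRNAs keep their proportion, and are not corrected for how well each RNA is captured. In WT input the CPM of miR-143-3p were 69172, 63895 and 71544 in replicates A, B and C. In WT IP they were 9085, 9984 and 9762. The groups were well separated, and the strand was number 3 in order of abundance among 1047 miRNAs with reads in WT input and number 19 among 902 in WT IP. Its input range lay between that of let-7i-5p, the miRNA just above it (95880 to 109423 CPM), and that of miR-99b-5p, just below it (56717 to 58594 CPM), without overlap.

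In KD3 the input values of miR-143-3p were 102227, 93988 and 123658 CPM and the IP values were 17114, 15489 and 12490 CPM. In KD6 the inputs held 78646, 74279 and 60984 CPM and the IP libraries 9142, 13846 and 10984 CPM. Input and IP did not overlap in either condition. The strand was number 2 in KD3 input and number 3 in KD6 input, and number 15 and number 17 in the matching IP groups.

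The passenger miR-143-5p made up 0.045% to 0.17% of the miR-143 reads of a library, and was also lower after the IP. Its WT input values were 49.96, 47.2 and 47.9 CPM, and its WT IP values were 4.06, 6.49 and 12.5 CPM. In KD3 the inputs were at 65.9, 62.9 and 66.0 CPM and the IP libraries at 8.69, 17.2 and 19.7 CPM. In KD6 the inputs were at 71.7, 111 and 107 CPM and the IP libraries at 6.02, 15.9 and 9.55 CPM. Every IP library lay below every input of its condition, but each IP value rests on 17 to 128.5 reads, and the KD6 input A value on 19. In WT input this strand ranked 190th, and its range overlapped those of both neighbours, miR-18a-5p and miR-362-5p.

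The guide miR-145a-5p stood at 1295, 1097 and 1172 CPM in WT input and at 832, 624 and 582 CPM in WT IP. In KD3 it was at 1474, 1327 and 1260 CPM in the inputs and at 713, 544 and 807 CPM in the IP libraries. The KD6 inputs held 487, 1280 and 1229 CPM and the KD6 IP libraries 659, 754 and 858 CPM. Input and IP were separate in WT and KD3 and overlapped in KD6, where the low input value is that of replicate A with 129 reads of the strand. Its place in the order of abundance moved little, from 61st to 68th in WT, from 57th to 69th in KD3 and from 63rd to 64th in KD6. In WT input its range overlapped that of miR-182-5p, just below it, and not that of miR-20a-5p, just above.

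The passenger miR-145a-3p was at 170, 148 and 193 CPM in WT input and at 116, 139 and 132 CPM in WT IP. It was at 211, 206 and 188 CPM in KD3 input and at 141, 215 and 285 CPM in KD3 IP. In KD6 the inputs held 125, 348 and 262 CPM and the IP libraries 396, 267 and 247 CPM. Input and IP overlapped in both knockdown conditions and were narrowly apart in WT. The strand stood higher in the order of abundance after the IP in each condition: 132nd in input and 115th in IP in WT, 124th and 101st in KD3, and 111th and 88th in KD6. In WT input its range overlapped those of miR-298-5p and miR-34b-3p, its neighbours in that order.

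**Figure D1:**
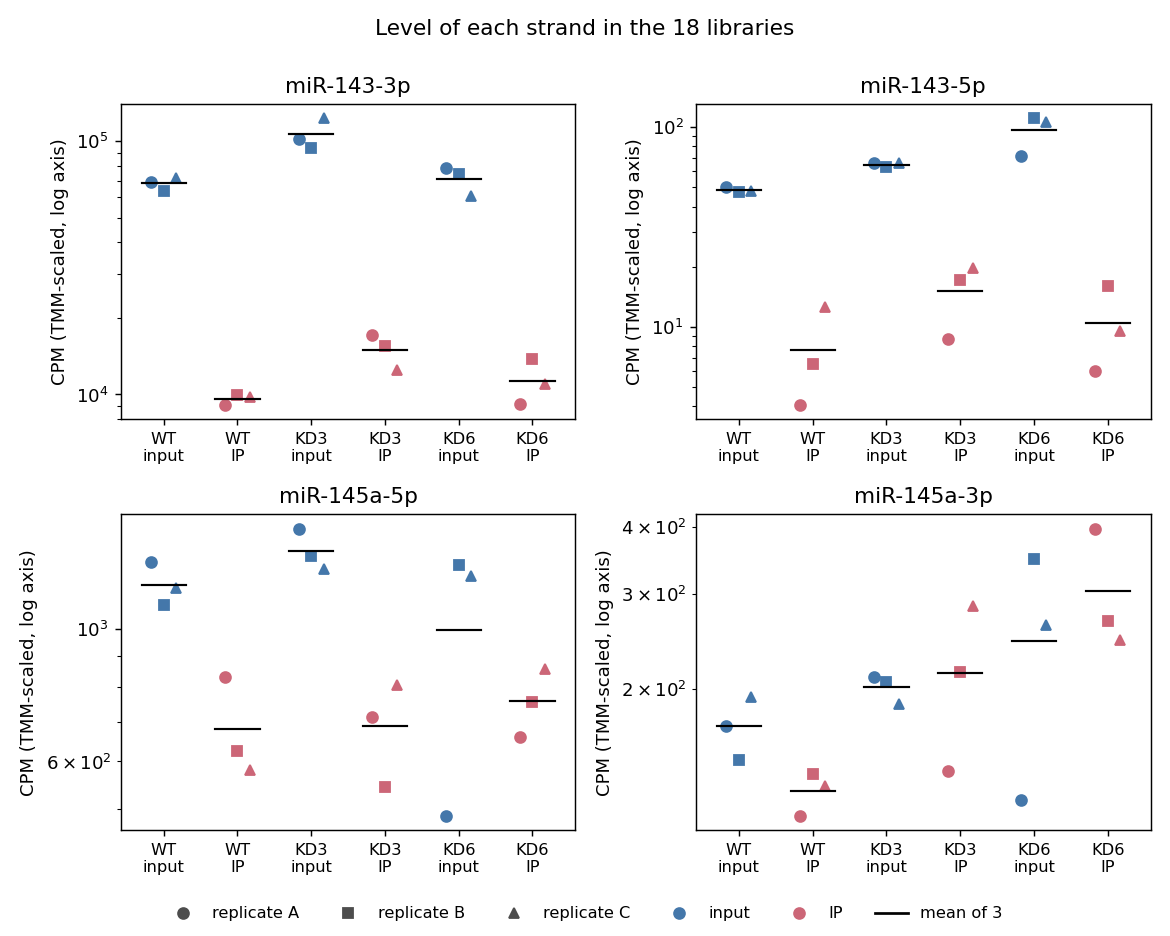
Level of each strand in each of the 18 libraries, in TMM-scaled CPM on a log axis, with 1 panel per strand; points are libraries, symbols the replicate letter, and lines the mean of 3. Both miR-143 strands lie lower in every IP library than in any input of the same condition. The miR-145a strands differ less, with miR-145a-5p lower in IP in WT and KD3 and overlapping in KD6.

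The first comparison was IP against input, which asks whether a miRNA takes a larger or smaller share of the reads after selection with the Ψ antibody. miR-143-3p was 7.10-fold lower in WT IP than in WT input, a log2 ratio of −2.83 ± 0.18 (SE, n = 3 libraries per group, edgeR quasi-likelihood test with Benjamini-Hochberg adjusted p = 2.8e-11). The log2 ratio was −2.83 ± 0.18 in KD3 (adjusted p = 2.6e-11) and −2.65 ± 0.18 in KD6 (adjusted p = 7.8e-11), by the same edgeR test. miR-143-5p fell as well, with log2 ratios of −2.60 ± 0.36 in WT, −2.08 ± 0.35 in KD3 and −3.28 ± 0.38 in KD6 and edgeR adjusted p of 2.1e-06, 2.6e-05 and 1.4e-07. Passing this test was common, since 65.6% of the 550 miRNAs were called in WT, 40.2% as lower and 25.5% as higher. This split turns with the scaling, since 140 were higher and 221 lower with TMM in WT but 221 higher and 169 lower with upper-quartile factors, and with TMM more were higher than lower when any 1 library other than replicate A of the KD6 input was left out. In KD3, 65.8% were called, 38.2% lower and 27.6% higher, and in KD6 68.9% were called, 38.4% lower and 30.5% higher. The groups did not overlap for 73.1% of miRNAs in WT, 73.6% in KD3 and 56.4% in KD6, so that a lower IP level alone does not set the cluster apart.

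The miR-145a strands differed less between IP and input. The guide miR-145a-5p had a log2 ratio of −0.81 ± 0.26 in WT (edgeR adjusted p = 0.011) and −0.98 ± 0.27 in KD3 (edgeR adjusted p = 0.0028), while its value of −0.42 ± 0.26 in KD6 did not pass (edgeR adjusted p = 0.17). The passenger miR-145a-3p had log2 ratios of −0.40 ± 0.29, 0.087 ± 0.29 and 0.26 ± 0.29 in WT, KD3 and KD6, with edgeR adjusted p of 0.23, 0.79 and 0.43. In all, 3 of the 4 strands were called lower in WT and in KD3, and 2 in KD6, with none called higher. Their median log2 ratios were −1.71, −1.53 and −1.53, beside medians of −0.35, −0.26 and −0.35 over the 550 miRNAs.

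The size of these ratios depends on how libraries of such different composition are scaled. Over all scalings, filters and left-out libraries tried, the median of all miRNAs moved between −0.38 and 0.59 on the log2 scale in WT, between −0.61 and 0.49 in KD3 and between −1.16 and 0.50 in KD6. Both miR-143 strands were called lower in each of the 50 alternatives in each condition, with log2 ratios of −3.45 to −1.99 for miR-143-3p and −4.07 to −1.35 for miR-143-5p. Relative to the median of all miRNAs, miR-143-3p lay between −3.10 and −2.22, and the main values were −2.48, −2.57 and −2.30 in WT, KD3 and KD6. In WT, 19.5% of the 550 miRNAs had a lower ratio than miR-143-3p and 22.2% a lower one than miR-143-5p.

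The calls on miR-145a did not have this footing. With upper-quartile factors the log2 ratio of miR-145a-5p in WT was −0.099 (edgeR adjusted p = 0.66) and that of miR-145a-3p in KD6 was 1.11 (edgeR adjusted p = 0.00057), called higher. miR-145a-3p was called in KD6 in 38 of 50 alternatives, among them 17 of 18 left-out libraries with TMM and 15 of 18 with RLE factors, so the value that did not pass is the less frequent outcome. It was called in 16 of 50 in KD3 and in 0 of 50 in WT. With TMM, leaving out any 1 of 17 libraries ended the miR-145a-5p calls in WT and in KD3, and the call held in both only without replicate A of the KD6 input (edgeR adjusted p = 0.0032 and 4.6e-05). With RLE factors the call held in KD3 in 18 of 18 such fits (edgeR adjusted p at most 0.035) and in WT in 11 of 18. The direction of miR-145a-3p changed with the scaling or the libraries used in each condition, from −0.56 to 0.49 in WT, −0.28 to 0.79 in KD3 and −0.55 to 1.11 in KD6. Measured against the median of all miRNAs, miR-145a-5p was below it in every alternative, at −0.85 to −0.39 in WT, −0.97 to −0.62 in KD3 and −0.75 to −0.0068 in KD6 on the log2 scale.

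**Figure D2:**
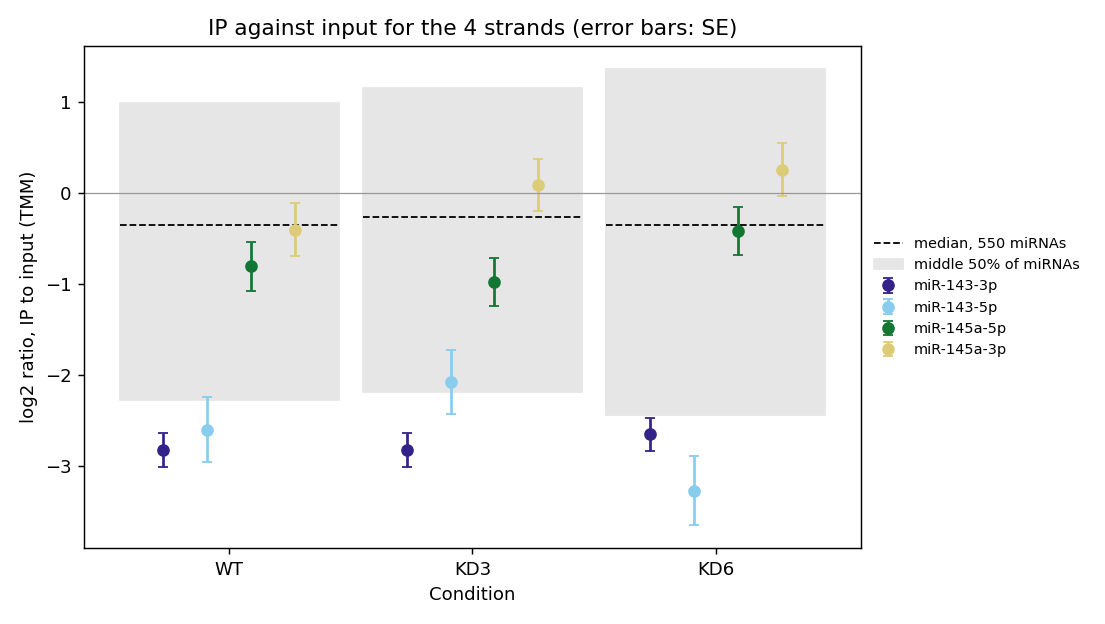
Log2 ratio of IP to input for each strand in WT, KD3 and KD6 with its SE, from the edgeR model over 18 libraries, beside the median (dashed) and the middle 50% (grey) of 550 miRNAs. The miR-143 strands lie between −3.28 and −2.08 and the miR-145a strands between −0.98 and 0.26.

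**Figure D3:**
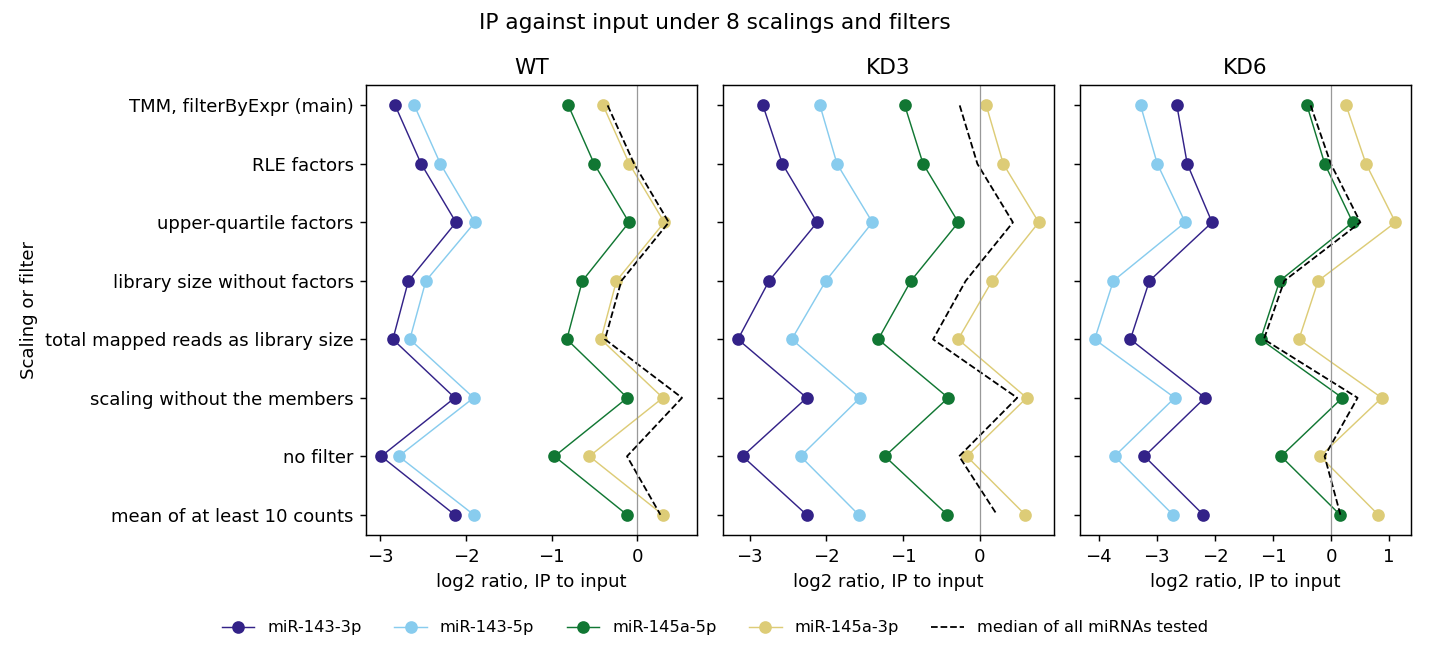
The same log2 ratios under 8 scalings or filters, 1 panel per condition, with the median of all miRNAs tested as a dashed line. The 4 strands move together from one setting to the next, the miR-143 strands stay on the lower side of the median, and both miR-145a strands cross 0 in KD6.

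**Figure D4:**
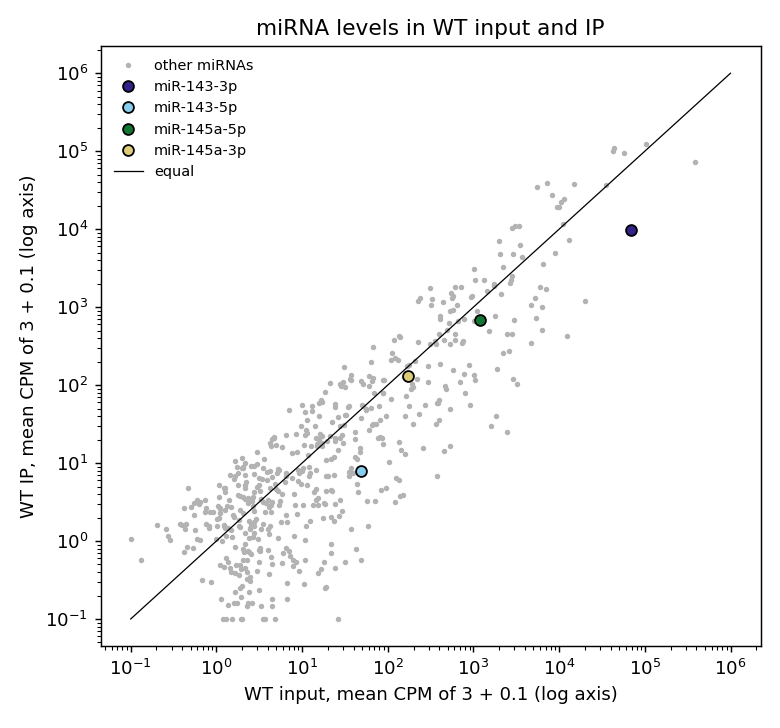
Mean CPM of the 550 tested miRNAs in WT input and WT IP (n = 3 each, with 0.1 CPM added, log axes), with the 4 strands marked and a line of equality. miR-143-3p, at 68204 CPM in input and 9610 CPM in IP, lies far below the line among the abundant miRNAs, while both miR-145a strands lie below it but nearer to it.

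Measures taken within a library need no scaling factor between libraries. Of these, 4 were tested with two-sided exact permutations of the IP and input labels within each condition, with p-values adjusted over the 4. A first measure was the balance of the guides. In WT input there were 53.4, 58.2 and 61.1 reads of miR-143-3p for each read of miR-145a-5p, and in WT IP 10.9, 16.0 and 16.8. KD3 had 69.3, 70.8 and 98.1 in the inputs and 24.0, 28.5 and 15.5 in the IP libraries. KD6 had 162, 58.0 and 49.6 in the inputs, the highest from the shallow replicate A, and 13.9, 18.4 and 12.8 in the IP libraries. No IP library reached any input of its condition.

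On the log2 scale this ratio was lower in IP by 2.01 in WT, 1.84 in KD3 and 2.39 in KD6, or 4.22-fold on average over the conditions (exact permutation p = 0.00025, the smallest these labels allow, adjusted p = 0.0005). Without any 1 library the mean log2 difference stayed between −2.18 and −1.90. Relative to miR-145a-5p, miR-143-3p was thus lower after the IP in each condition, whatever the scaling.

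The second measure was the share of the 4 strands among all miRNA reads. Unlike the ratio of the guides and the arm shares, it moves with the reads of all other miRNAs, as CPM does. The WT inputs gave them 6.63% ± 0.15 and the WT IP libraries 1.11% ± 0.028 (SD, n = 3). The shares were 10.5% ± 1.2 before and 1.64% ± 0.23 after the IP in KD3. They were 8.52% ± 0.75 before and 1.05% ± 0.22 after it in KD6. The mean difference of −7.29 percentage points (exact permutation p = 0.00025, adjusted p = 0.0005) was nearly all due to reads of miR-143-3p, and the groups did not overlap.

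The arms of the miR-145a hairpin also changed their balance. The 5p strand made up 88.4%, 88.1% and 85.8% of miR-145a reads in WT input and 87.7%, 81.8% and 81.5% in WT IP. In KD3 its share was 87.5%, 86.6% and 87.0% in input and 83.5%, 71.7% and 73.9% in IP. In KD6 it was 79.6%, 78.6% and 82.4% in input and 62.4%, 73.9% and 77.7% in IP. The replicates of an IP group differed by more than counting error, since the 95% Wilson intervals of KD6 IP A (60.8% to 64.1%) and KD6 IP C (76.6% to 78.6%) are far apart, and these intervals cover counting error only. Input and IP overlapped in WT through replicate A and were separate in KD3 and KD6.

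Over the conditions the 5p share of miR-145a differed between IP and input by −7.78 percentage points on average (exact permutation p = 0.00075, adjusted p = 0.001), and by −8.98 to −6.31 points without any 1 library. WT differed by −3.78 points, KD3 by −10.7 and KD6 by −8.90. Within a condition 3 libraries against 3 cannot give an exact p below 0.1, and the values were 0.2 in WT and 0.1 in both knockdown conditions.

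The 5p share of miR-143 gave no call. It was at most 0.17% in any library, so a shift of several points, as for miR-145a, was out of its reach. The WT inputs had 0.071% ± 0.0036 of their miR-143 reads on the 5p strand, and the WT IP libraries 0.079% ± 0.044 (SD, n = 3). KD3 had 0.062% ± 0.0072 in input and 0.11% ± 0.054 in IP, and KD6 0.14% ± 0.043 in input and 0.089% ± 0.025 in IP. The mean difference over the conditions was 0.0014 percentage points (exact permutation p = 0.94, adjusted p = 0.94). It was positive in WT and KD3 and negative in KD6, and the KD3 IP libraries alone spanned 0.051% to 0.16%.

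**Figure D5:**
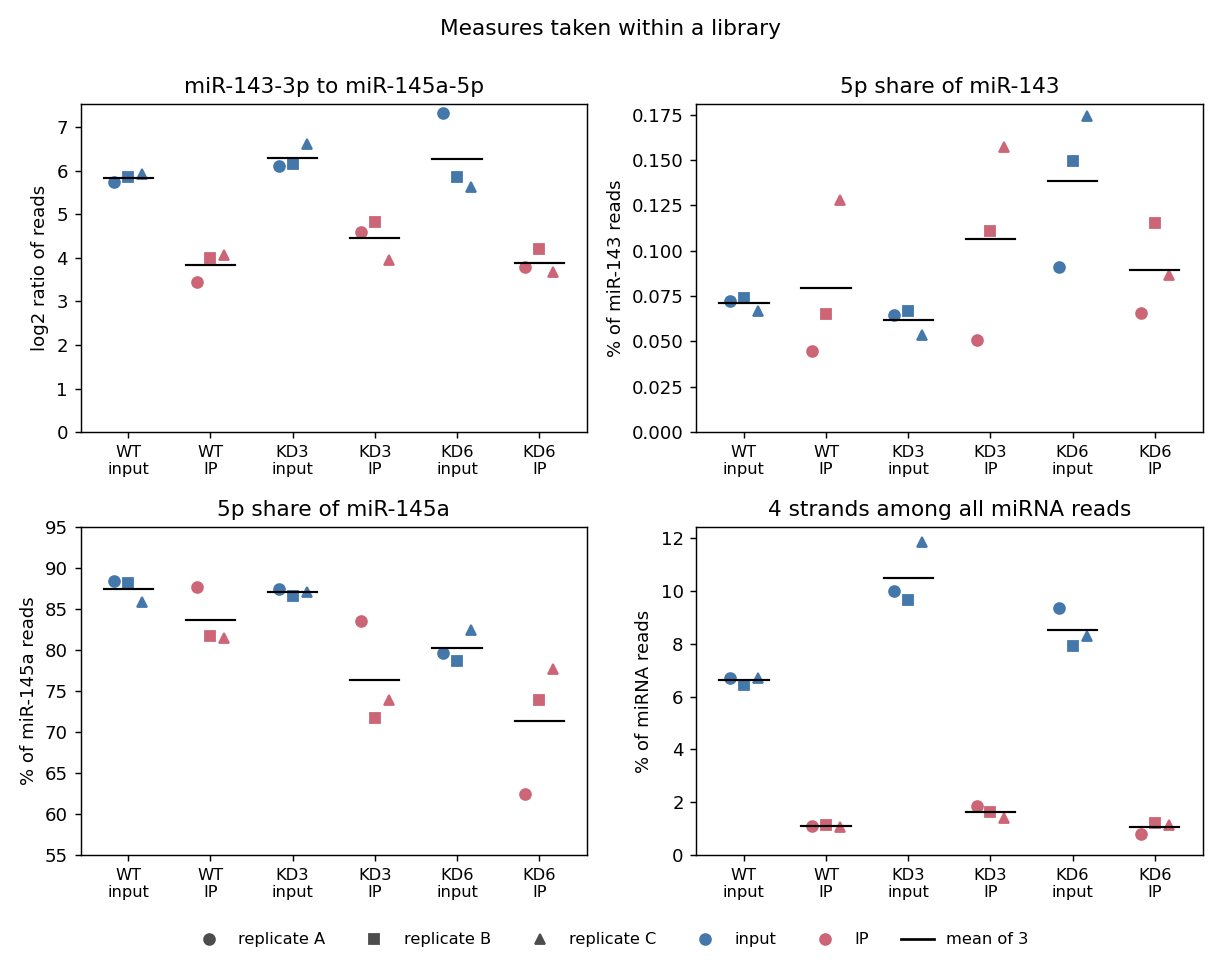
The 4 measures taken within each library, by group: the log2 ratio of miR-143-3p to miR-145a-5p reads, the 5p share of miR-143 reads, the 5p share of miR-145a reads (axis from 55% to 95%) and the share of all miRNA reads held by the 4 strands. Points are libraries and lines the mean of 3. The ratio and the total share are lower in every IP library, and the miR-143 arm shares overlap.

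Distinct read sequences behind the miR-143 strands were fewer in WT IP than in WT input. The WT IP libraries were also shallower, with 4525099 to 8185779 mapped reads beside 9973764 to 12530362 in the WT inputs. Depth and abundance cannot be told apart in these counts. miR-143-3p was represented by 762.4 to 789.2 distinct sequences in WT input and 253.3 to 299.1 in WT IP, where a sequence matching several places counts in part. miR-143-5p was represented by 43.0 to 53.5 and 8.0 to 16.5, so both miR-143 strands were read as more than 1 sequence in each of those libraries.

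Whether the IP ratio differed between knockdown and WT cells was tested as the difference of the ratios between KD3 or KD6 and WT. These comparisons share the WT libraries. None of the 4 strands was called, and neither was any other miRNA, so that 0% of 550 were called in both comparisons by edgeR, with 17 and 98 miRNAs at an unadjusted p under 0.05 and 0 and 23 called by DESeq2. For miR-143-3p the change was 0.00066 in KD3, with a 95% interval from −0.51 to 0.51, and 0.17 in KD6, from −0.33 to 0.68. For miR-143-5p it was 0.52 (−0.50 to 1.54) in KD3 and −0.68 (−1.73 to 0.38) in KD6. For miR-145a-5p it was −0.17 (−0.94 to 0.60) and 0.39 (−0.38 to 1.17), and for miR-145a-3p 0.49 (−0.36 to 1.34) and 0.66 (−0.19 to 1.51). These intervals leave room for changes of up to 2-fold or more in both passengers and in miR-145a-5p after 6 days, and do not show that the ratios were equal.

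The last comparison was of the inputs, which asks whether the level of the strands before any IP differed between knockdown and WT cells. In bulk libraries fewer cells that make a miRNA and less of it in each cell cannot be told apart. miR-143-3p was 1.56-fold higher in KD3 than in WT input, with groups that did not overlap and a log2 difference of 0.64 ± 0.17, and this did not pass after adjustment (edgeR adjusted p = 0.13, unadjusted p = 0.0013). Among the 550 miRNAs, 0% were called in this comparison by edgeR, 46 had an unadjusted p under 0.05, DESeq2 called 8, and the groups did not overlap for 36.5%. Without replicate A of the KD6 input, which enters this comparison only through the shared fit, miR-143-3p was called (log2 difference 0.79, edgeR adjusted p = 0.014). DESeq2 also called it, at 0.78, and in all it was called in 5 of 50 alternatives. Relative to the median of all miRNAs it was higher by 0.82 on the log2 scale, and 95.5% of miRNAs had a lower difference.

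The other strands in KD3 input had log2 differences of 0.43 ± 0.32 for miR-143-5p, 0.19 ± 0.26 for miR-145a-5p and 0.24 ± 0.29 for miR-145a-3p (edgeR adjusted p = 0.73, 0.85 and 0.84), and the groups were apart for miR-143-5p alone. In KD6 input miR-143-3p differed from WT by 0.064 ± 0.17, miR-145a-5p by −0.23 ± 0.26 and miR-145a-3p by 0.57 ± 0.29 on the log2 scale (edgeR adjusted p = 0.91, 0.69 and 0.33). Both miR-145a strands had their lowest KD6 input value in replicate A, and without it the log2 difference of miR-145a-3p was called in 2 of 2 fits, at 0.97 with TMM (edgeR adjusted p = 0.025) and at 0.94 with RLE factors (edgeR adjusted p = 0.030).

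The passenger miR-143-5p was 2.07-fold higher in KD6 than in WT input, a log2 difference of 1.05 ± 0.34 that missed the threshold (edgeR adjusted p = 0.083). The groups did not overlap, as was the case for 28.4% of miRNAs, and 4.18% of the 550 were called in this comparison, 0.364% as higher. It was called in 35 of 50 alternatives, with log2 differences of 0.96 to 1.36, and 96.7% of miRNAs had a lower difference. Its share of miR-143 reads in the inputs was 0.067% to 0.074% in WT and 0.091%, 0.15% and 0.17% in the KD6 libraries (exact permutation p = 0.1, the lowest possible with 3 against 3). The 5p share of miR-145a in the inputs differed by −7.24 points between KD6 and WT, also with an exact permutation p of 0.1. Of 16 such comparisons of the 4 within-library measures between conditions, 7 were at 0.1 and none could go lower. The others at 0.1 were the share of the 4 strands among miRNA reads of the inputs (3.88 points higher in KD3 than in WT and 1.90 points higher in KD6), the change of its IP minus input difference (−3.35 points in KD3 and −1.95 in KD6) and the log2 ratio of the guides in KD3 input (0.45 above WT). A difference in points grows with the input share, which averaged 6.63% in WT, 10.5% in KD3 and 8.52% in KD6. Its change therefore does not show a stronger loss in the IP after knockdown.

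Across the 18 libraries the strands did not move as one. The Pearson correlation of log2 CPM was 0.93 between miR-143-3p and miR-143-5p, 0.70 between the guides miR-143-3p and miR-145a-5p, and 0.25 between the arms of miR-145a. Within groups, after the group means were removed, the values were 0.13, −0.29 and 0.57. The correlations over all 18 libraries include their division into IP and input, which the values within groups leave out. The libraries also differ in depth, and none of these correlations is a test.

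The miRNAs whose pattern over the 18 libraries was most like that of miR-143-3p, among 148 with a mean of at least 100 CPM, were miR-381-3p (r = 0.989), miR-101a-3p (r = 0.988) and miR-210-3p (r = 0.984). Their log2 ratios of IP to input in WT were −6.62, −5.78 and −5.01, so they lay further below input than miR-143-3p did. For miR-145a-5p the most alike were miR-503-5p (r = 0.888), miR-140-5p (r = 0.885) and miR-181b-5p (r = 0.875), with WT log2 ratios of −1.07, −1.40 and −1.05.

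Other miRNAs known to act in smooth muscle cells went in both directions. Of 14 listed, 12 were tested, and 4 were called higher and 4 lower in WT IP than in input, while 5 were higher and 4 lower in KD3 and likewise in KD6, all with TMM scaling. Their median log2 ratio was 0.22 in WT, 0.19 in KD3 and −0.070 in KD6, beside the medians of all miRNAs of −0.35, −0.26 and −0.35. Of the 3 with the highest mean CPM over the 18 libraries, miR-21a-5p was lower in IP, with a WT log2 ratio of −2.42 ± 0.24 and means of 385535 CPM in input and 72127 CPM in IP. miR-92a-3p (log2 ratio 2.65 ± 0.27) and miR-26a-5p (log2 ratio 1.01 ± 0.23) were higher in WT IP. None of the 12 was called for a change in enrichment or in KD3 input, where 0% of all 550 were called. In KD6 input 1 of them, miR-10a-5p, named after its value was seen, was lower by 0.97 ± 0.19 on the log2 scale (edgeR adjusted p = 0.0039). There 3.82% of all 550 were called lower.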

How the data were processed

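Small RNA of NIH/3T3 cells was sequenced as input and after Ψ-IP. The authors ran the SeqImp pipeline with the mm10 assembly, Ensembl 89 and miRBase 21, and deposited estimated counts of mapped reads, not normalized, in 2045 rows for 1907 mature miRNAs. Reads with several matching loci are split between them, and 47.0% of non-zero values were not whole. The row of library totals entered no test. A second set of deposited columns holds estimated counts of distinct read sequences. The authors tested with DESeq2.

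Rows were summed per mature miRNA (78 had several rows) and rounded for testing. Counts were fitted in R 4.3.3 with edgeR 4.0.16 (TMM, filterByExpr, glmQLFit, glmQLFTest), with 6 group means over 18 libraries, 7 comparisons and Benjamini-Hochberg adjusted p under 0.05 over 550 miRNAs. Standard errors were derived from each log2 ratio and its F statistic. Within-library measures were tested by exact permutation in Python 3.11.15, and correlations used log2 of CPM with 1 added. DESeq2 1.42.0, other scalings and filters, a block for the replicate letter, and each library left out were alternatives. TMM factors without the 4 strands, and left-out libraries with RLE factors, were added after seeing the data.

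The 4 strands, lists and tests were chosen with earlier results of these data known. Named beside them are miR-145b, the 3 miRNAs most alike to each guide, the 3 of a smooth muscle list with the highest mean CPM over 18 libraries and the neighbours in WT input. Other miRNAs are named only as markers.

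Same-letter libraries were compared by the correlation of their deviations from group means over 190 miRNAs. Every pair exceeded 0.1 only for KD3 against WT input (0.60, 0.21 and 0.35), and KD6 against WT input gave 0.23, 0.073 and 0.40. Libraries of different letters were not compared in this way. These values therefore do not show whether same-letter libraries are paired, and no label pairs them. All replicates differed beyond sampling noise. On simulated counts for IP against input in WT, run on 518 miRNAs, the test called 60.4% of 101 miRNAs given a 2-fold change and 92.3% of 91 given a 4-fold change. For a change in enrichment in KD6, on 516 miRNAs, it called 25.5% of 94 and 73.7% of 95. These counts were made with changes in 200 miRNAs, while in the data 65.6% of 550 were called for IP against input in WT. The rate of calls with as many differing miRNAs as between IP and input was not tested.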

Additional observations from a re-analysis of the deposited data

How the results depend on the processing

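The calls of lower miR-143-3p and miR-143-5p in IP held in all 3 conditions under every alternative, as did 3 of the 4 within-library tests, while the 5p share of miR-143 was never called and lay between −0.0071 and 0.011 points without any 1 library. Below, each alternative is named in brackets: RLE, upper-quartile or no factors, mapped reads as library size, no filter, a filter at a mean of 10 counts, the largest row or all rows, the compared libraries only, DESeq2, a threshold of 0.01, a test against a 2-fold change, and TMM without the 4 strands. The cause of these differences was not tested. Depth limits miR-143-5p most, with 17 to 128.5 reads in the IP libraries, and the KD6 input through its replicate A.

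For miR-145a-5p, IP against input in WT (main −0.81) was not called at −0.099 (upper quartile), −0.64 (no factors), −0.12 (10 counts), −0.81 (0.01 and 2-fold) and −0.12 (without the strands), and ranged from −0.78 to 0.13 with a library left out. In KD3 (main −0.98) it was not called at −0.28 (upper quartile), −0.42 (10 counts), −0.98 (2-fold) and −0.41 (without the strands), with −1.19 to −0.17 for left-out libraries. In KD6 (main −0.42) it turned to 0.37 (upper quartile), 0.15 (10 counts), 0.16 (compared libraries) and 0.19 (without the strands), and was called at −0.89 (no factors), −1.21 (mapped reads), −0.86 (no filter) and −0.68 (all rows), with −0.91 to 0.33 for left-out libraries. Its change in KD6 turned to −0.24 (no factors) and −0.39 (mapped reads), with −0.14 to 0.59 for left-out libraries. In KD6 input it turned to 0.073 (no factors), 0.016 (mapped reads), 0.067 (no filter) and 0.022 (10 counts), with −0.21 to 0.22 for left-out libraries.

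For miR-145a-3p, IP against input in WT (main −0.40) turned to 0.31 (upper quartile), 0.30 (10 counts) and 0.30 (without the strands), with −0.38 to 0.49 for left-out libraries. In KD3 (main 0.087) it turned to −0.28 (mapped reads), −0.17 (no filter) and −0.15 (all rows), and was called at 0.77 (upper quartile), 0.60 (10 counts) and 0.61 (without the strands), with −0.13 to 0.79 for left-out libraries. In KD6 (main 0.26) it turned to −0.22 (no factors), −0.55 (mapped reads) and −0.19 (no filter), and was called at 0.60 (RLE and DESeq2), 1.11 (upper quartile), 0.81 (10 counts), 0.84 (compared libraries) and 0.87 (without the strands), with −0.21 to 1.05 for left-out libraries. Its change in KD6 turned to −0.13 (mapped reads), and its change in KD3 ranged from −0.032 to 0.63 for left-out libraries. Its KD6 input difference was called at 0.87 (no filter), with 0.56 to 0.97 for left-out libraries.

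The change in enrichment of miR-143-3p, never called, turned in KD3 to −0.049 (RLE and DESeq2), −0.0019 (upper quartile), −0.073 (no factors), −0.30 (mapped reads), −0.10 (no filter), −0.12 (10 counts, and without the strands), −0.23 (all rows) and −0.0014 (compared libraries), and in KD6 to −0.45 (no factors), −0.60 (mapped reads), −0.22 (no filter), −0.066 (10 counts), −0.20 (all rows), −0.026 (compared libraries) and −0.040 (without the strands). With a library left out it ranged from −0.45 to 0.088 in KD3 and from −0.29 to 0.19 in KD6, and that of miR-143-5p in KD3 from −0.016 to 0.99. In KD3 input, miR-143-3p was called at 0.83 (no filter) and 0.78 (compared libraries, and DESeq2), with 0.63 to 0.86 for left-out libraries. The compared libraries alone also called miR-143-5p at 0.57, miR-145a-5p at 0.33 and miR-145a-3p at 0.39 there. In KD6 input, miR-143-5p was called at 1.23 (RLE, upper quartile and DESeq2), 1.35 (no factors), 1.30 (mapped reads), 1.36 (no filter), 1.31 (10 counts), 1.28 (all rows), 1.28 (compared libraries) and 1.28 (without the strands), with 1.19 to 1.34 for left-out libraries.

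With the replicate letter as a block no call on the 4 strands changed, the change in enrichment of miR-143-3p in KD3 was −0.0021, and the within-library ratio of the guides had an exact permutation p adjusted over the 4 of 0.0052.

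Counts over all miRNAs moved from 0 in KD3 input to 1 (no factors, 10 counts, and without the strands), 5 (no filter), 77 (compared libraries) and 8 (DESeq2), and 0 to 4 with a library left out. In KD6 input they moved from 23 to 13 (no factors), 14 (mapped reads), 15 (10 counts, and all rows), 9 (0.01) and 0 (2-fold), and 0 to 31 with a library left out. For the change in enrichment they moved from 0 to 1 in KD3 (no filter) and to 51 (mapped reads), 14 (no filter), 6 (largest row) and 23 (DESeq2) in KD6, with 0 to 57 for left-out libraries. These last were 20 (TMM) and 57 (RLE) when KD6 IP replicate C was left out, and 14 (RLE) when KD6 input replicate A was. The KD6 input count was 0 (TMM) without its replicate C and 31 (RLE) without its replicate A. Of the miRNAs called for IP against input, 38.8%, 42.0% and 44.3% were higher in WT, KD3 and KD6, 56.7%, 58.6% and 59.1% with upper-quartile factors, 55.3%, 54.3% and 52.9% with the filter at 10 counts, and 58.7%, 57.8% and 56.9% without the strands. With TMM and a library left out, the share was over 50% in 17 of 18 fits in each condition and reached 60.1%, 57.6% and 56.5%, the exception being KD6 input replicate A.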
